A study of Drosophila melanogaster with 33 samples.

Results

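RNA editing was followed at the sites of 6 genes of Drosophila melanogaster that build or control the contractile machinery of muscle. The genes bt, Mhc, Zasp52, sls and Unc-89 encode proteins of the sarcomere, and Rya-r44F encodes the ryanodine receptor, the channel that releases calcium from the endoplasmic or sarcoplasmic reticulum. The members are all sites listed under these 6 gene symbols, which gave 13 of the 1350 sites in the deposited table. Rya-r44F held 8 of them and the sarcomere genes held 1 each. No entry joined a member with an overlapping gene. In the current RefSeq gene table Unc-89 is named Obsc and Rya-r44F is named RyR.

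In this kind of editing the enzyme ADAR deaminates adenosine to inosine in double-stranded RNA, and sequencing reads inosine as guanosine. In flies many known targets are genes of the nervous system, where edited exons change amino acids of channels and release proteins. In striated muscle, calcium leaves the reticulum through the ryanodine receptor and starts sliding of myosin thick filaments along actin thin filaments, which are anchored in the Z-disc. The ryanodine receptor also works in neurons, and fly heads hold both neurons and muscle, so a head RNA level does not say which cells carry it. In RNA from whole heads, fewer cells with edited transcripts and less editing per cell cannot be told apart.

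The study measured editing in heads of flies aged 3 to 4 days, kept in cycles of 12 h light and 12 h dark. Nascent RNA, still attached to chromatin and depleted of polyadenylated RNA, came from 12 libraries of yellow white (yw) flies, taken at 6 times of day in 2 replicate sets. Small preparations of nascent RNA from 40 to 45 heads came from males of yw, of FM7a, an X chromosome balancer, and of ADAR0, which lacks the editing enzyme, with 2 libraries each. Canton S flies gave 12 libraries of polyadenylated mRNA and yw flies gave 2, and 1 library held yw genomic DNA. The labels do not say how the ADAR0 stock was made.

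A level is the percentage of reads at a site that carry the edited base. The authors pooled the libraries before taking it, so there is 1 value for each nascent set of 6 libraries, 1 for all 12, and 1 for each mRNA strain and each male strain. How many RNA reads stand behind a level is unknown, so 0% states what the table lists and not that editing was absent. Genomic DNA covered the 13 sites with 25 to 71 reads. The sole replicate error is the spread between the nascent sets, with an SD of 3.14 percentage points over the 13 sites and 4.61 points over all sites. The sets differed by 10 points at most, so 0 of 13 sites differed by more than 10 points, against 11% of all sites. Since every other pool is a single value, no test between groups was possible, and the differences below are descriptions. A difference is counted when it is more than 10 percentage points, and each count is read beside the share of all sites that pass the same limit. The table holds no expression values, so marker genes of muscle could not be used to check the cells in these heads.

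Of the 13 sites, 11 were exonic, against 46% of all sites, and 8 of these 11 lay in Rya-r44F. The intronic sites were those of Mhc and Zasp52. The median level in the pool of 12 nascent libraries was 27%, with a range from 7% to 93%, and over all 1350 sites it was 21%. The exonic sites had a median of 27%, equal to that of all exonic sites. The intronic sites stood at 25% and 29%, against a median of 18% for all intronic sites. An mRNA level was given for 4 of the 11 exonic sites, against 41.4% of all exonic sites. These were bt, Unc-89 and 2 sites of Rya-r44F.

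**Figure D1:**
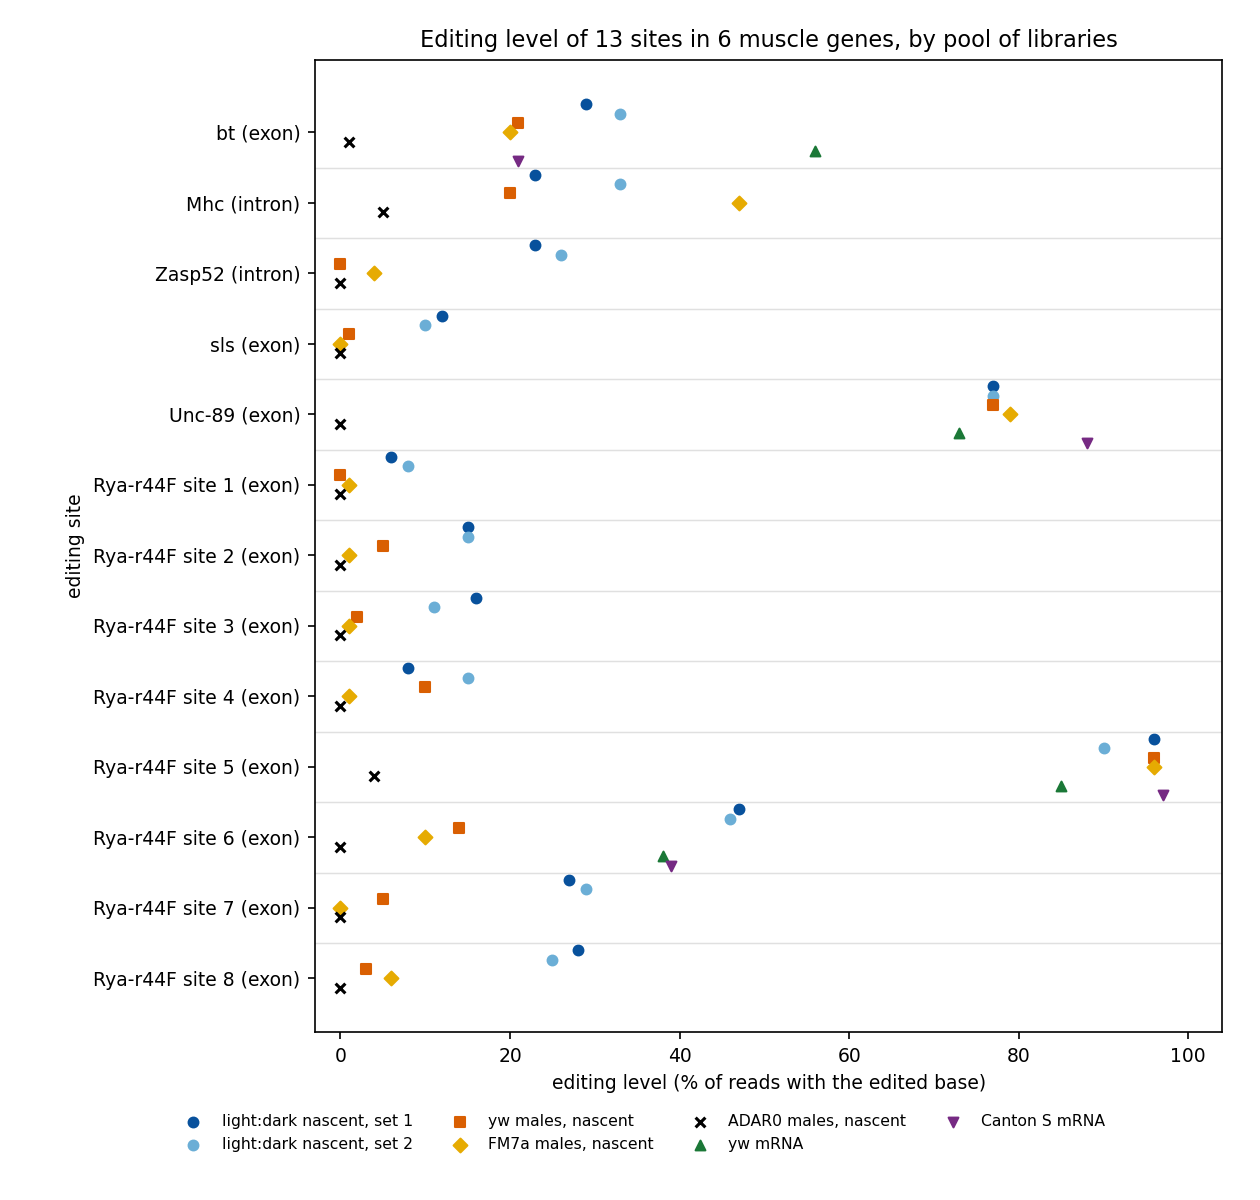
Editing level in percent (x axis) at each of the 13 sites (rows), with 1 point per pool of libraries and no error bars, since each pool is a single deposited value. Unc-89 and Rya-r44F site 5 are near the right in every pool except ADAR0, while the male points of Zasp52, sls and most other Rya-r44F sites lie close to 0.

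The sarcomere gene with the highest level was Unc-89, which encodes obscurin, a giant protein of the M-line in the middle of the sarcomere. Its exonic site lies on chromosome 2R at position 19894078 of the dm3 build. Nascent RNA was edited at 77% in set 1 and at 77% in set 2 (SD 0, n = 2 sets). Males stood at 77% in yw, 79% in FM7a and 0% in ADAR0. The mRNA levels were 73% in yw and 88% in Canton S. The nascent pools with a working enzyme thus spanned 2 points, and 96.3% of all sites had a lower nascent level.

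The gene bt encodes projectin, a titin-like kinase that links thick filaments to the Z-disc in insect flight muscle. Its exonic site on chromosome 4, position 768364, had 29% in set 1 and 33% in set 2 (mean 31% ± 2.83 SD, n = 2 sets). Males of yw were at 21%, FM7a males at 20% and ADAR0 males at 1%. Its mRNA levels were the widest apart among the members, with 56% in yw and 21% in Canton S. The yw mRNA level lay above every other pool, and the Canton S level lay with the males, below both nascent sets.

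The other titin-like gene, sls, encodes Sallimus and its shorter form kettin, which bind actin near the Z-disc and give the sarcomere elasticity. Its exonic site on chromosome 3L, position 2095218, was at 12% in set 1 and 10% in set 2 (mean 11% ± 1.41 SD, n = 2 sets). Male levels were 1% in yw, 0% in FM7a and 0% in ADAR0, so no male strain was above 1%. No mRNA level was given for it.

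Mhc encodes the heavy chain of muscle myosin, the motor of the thick filament, and makes many isoforms by alternative splicing. Its intronic site on chromosome 2L, position 16780080, had 23% in set 1 and 33% in set 2 (mean 28% ± 7.07 SD, n = 2 sets), the widest gap between the sets among the members. Males were at 20% in yw, 47% in FM7a and 5% in ADAR0. The FM7a value was above both nascent sets and the yw male value was below both. The ADAR0 level was the highest of the 13 sites.

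Zasp52 encodes a Z-disc protein with a PDZ domain and LIM domains that binds alpha-actinin. Its intronic site on chromosome 2R, position 11663962, was at 23% in set 1 and 26% in set 2 (mean 24.5% ± 2.12 SD, n = 2 sets). Male levels were 0% in yw, 4% in FM7a and 0% in ADAR0. Both intronic sites had similar nascent levels in the light:dark flies, but only the Mhc site stood above 4% in the control males.

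Rya-r44F held 8 exonic sites within 8943 bases of chromosome 2R, numbered here 1 to 8 by increasing position. Sites 1 to 4, at positions 4763939, 4764038, 4764295 and 4765082, fell within 1143 bases. Site 5 followed 6129 bases later at position 4771211, and site 6 was only 39 bases from it at 4771250. Sites 7 and 8, at 4772736 and 4772882, were 146 bases apart. Neighbouring sites such as 5 and 6 may be covered by the same fragments, so they are not independent samples of the transcript.

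Site 5 was almost fully edited in flies with the enzyme. Its levels were 96% in set 1 and 90% in set 2 (mean 93% ± 4.24 SD, n = 2 sets), 96% in males of yw as well as of FM7a, and 4% in ADAR0. In mRNA it had 85% in yw and 97% in Canton S. Only 3 of the 1350 sites had a higher level in the pool of 12 nascent libraries.

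Site 6 behaved differently in the males although it lies next to site 5. It was at 47% in set 1 and 46% in set 2 (mean 46.5% ± 0.71 SD, n = 2 sets), but males had only 14% in yw, 10% in FM7a and 0% in ADAR0. Its mRNA levels were 38% in yw and 39% in Canton S, below the light:dark nascent sets and above the males.

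At sites 7 and 8, as at site 6, all male levels lay below both light:dark sets. Site 7 was at 27% in set 1 and 29% in set 2, at 5% in yw males, and listed at 0 in FM7a and ADAR0 males. Site 8 was at 28% in set 1 and 25% in set 2, and its male levels were 3% in yw, 6% in FM7a and 0% in ADAR0. At both sites the gap was 19 points or more. FM7a males were above yw males at site 8 and below them at sites 6 and 7.

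The group of sites 1 to 4 was edited at low levels. Site 1 had 6% and 8% in the nascent sets, 0% in yw males and 1% in FM7a males. Site 2 had 15% in both sets, 5% in yw males and 1% in FM7a males. Both male values were below both sets at each of these sites. Site 3 had 16% in set 1 and 11% in set 2, with 2% in yw males and 1% in FM7a males. Site 4 had 8% in set 1 and 15% in set 2, so that the 10% of yw males fell between the sets, while FM7a males had 1%. All 4 sites were listed at 0 in ADAR0 males.

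**Figure D2:**
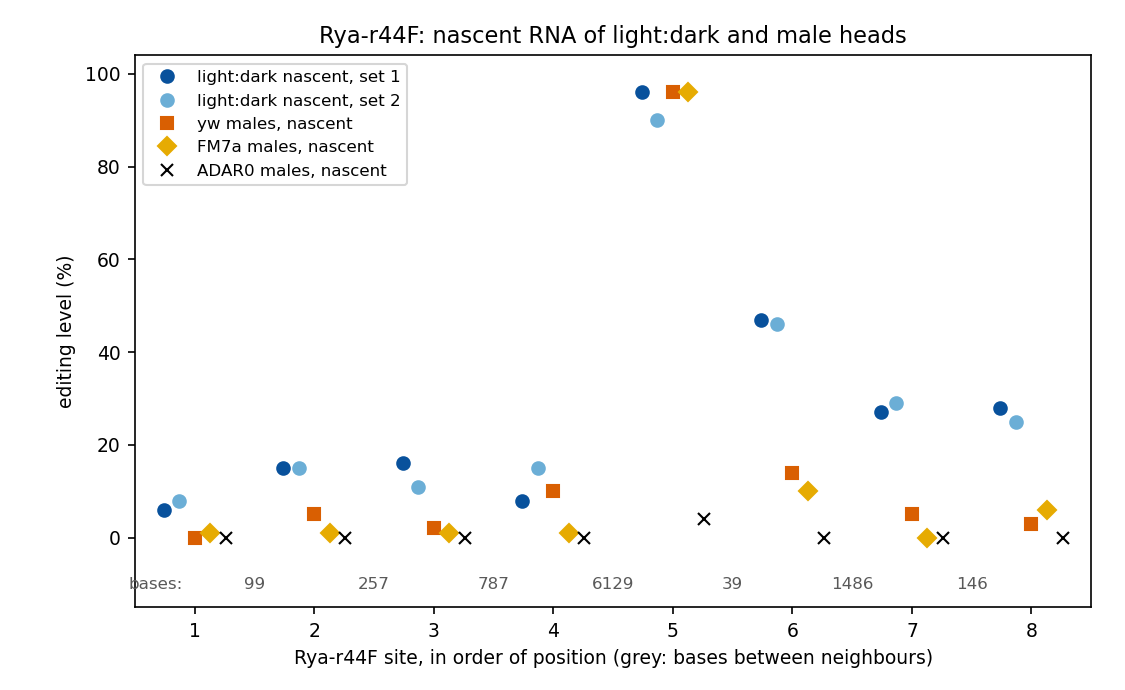
Editing level in percent (y axis) at the 8 Rya-r44F sites in order of position (x axis), with 1 point per nascent pool, and the number of bases between neighbouring sites in grey. At site 5 all pools except ADAR0 lie at 90% or more, whereas at site 6 the light:dark sets are at 47% and 46% and the males at 14% and 10%.

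By nascent level in the 12 libraries, the order was Rya-r44F site 5 at 93%, Unc-89 at 77% and Rya-r44F site 6 at 46%, each apart from its neighbours by more than the gap between its own sets. Next came bt at 31%, Mhc at 29%, Rya-r44F site 7 at 28%, site 8 at 27% and Zasp52 at 25%, and the sets of each of these touched or overlapped those of its neighbour. The lowest group comprised Rya-r44F site 2 at 15%, site 3 at 14%, site 4 at 12%, sls at 10% and site 1 at 7%. Within it, sls and site 1 were the neighbours whose sets did not overlap.

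A deposited 5th percentile over the 12 light:dark nascent libraries gives some view of the spread between libraries. It was 77% for Rya-r44F site 5 and 53% for Unc-89, so these sites were highly edited in nearly all libraries. For bt it was 18%, for Zasp52 9%, for sls 7% and for Mhc 6%. The remaining Rya-r44F sites had values from 0% at site 1 to 24% at site 6. The distance from the pooled level was 24 points for Unc-89, 23 points for Mhc and 22 points for Rya-r44F sites 6 and 7. The depth of single libraries is unknown, so counting error in them could not be separated from differences between libraries.

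Males of yw were lower than light:dark heads of the same strain by any amount at 11 of 13 sites, against 70.2% of the other sites in the table. The yw male level was lower than the light:dark pool by more than 10 points at 5 of 13 sites, against 30.7% of all sites, and higher at 0 of 13, against 7.36%. Those 5 sites were Rya-r44F sites 3, 6, 7 and 8, with differences of -12, -32, -23 and -24 points, and Zasp52, with -25 points. The share in this count is near that of all sites.

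A limit in points cannot be reached at low levels, so a relative rule was added after the values were seen. Both yw and FM7a males were under 50% of the light:dark level at 8 of 13 sites, against 18.6% of all sites. For yw males alone the same 8 of 13 sites passed, against 30.4% of the other sites in the table. They were Rya-r44F sites 1, 2, 3, 6, 7 and 8, sls and Zasp52. With both strains required, the count was 8 of 11 among sites under 50% in light:dark nascent RNA, against 20.9%. Among sites at 50% or more it was 0 of 2, against 5.56%. At Rya-r44F site 6 yw males had 30.4% of the light:dark level and at site 8 they had 11.1%, while at site 5 they had 103%. Since 6 of the 8 sites lie in 1 gene, they do not count as 8 independent observations. The male libraries were small preparations, were sequenced on another instrument and were processed with a later version of CASAVA. No time of day is given for the male libraries. Sex, time of day, preparation, instrument and software cannot be told apart in this comparison. For FM7a males, strain differs from the light:dark flies as well. Of the members, 5 of 13 sites were found in each of the 4 control male libraries, against 45.1% of all sites. They were bt, Unc-89 and Rya-r44F sites 2, 5 and 6.

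The strains FM7a and yw both carry the enzyme. FM7a males were higher than yw males by more than 10 points at 1 of 13 sites, against 9.51% of all sites, and lower at 0 of 13, against 22.5%. The 1 site was Mhc, with a difference of 27 points, rank 33 from the top of 1336 sites. Mhc was not among the sites found in each of the 4 control male libraries, and its nascent sets were the widest apart of the members. At the other 12 sites the strains differed by 9 points or less. A drop of more than 10 points could not be reached at 8 of the 13 sites, where yw males were at 10% or less. Over the whole table this held for 520 of 1346 sites. Small differences at such levels do not show that the strains agree. At Rya-r44F site 4, for example, yw males had 10% and FM7a males 1%.

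ADAR0 males serve as background without the enzyme. They were listed at 0 at 10 of 13 sites, against 88.1% of all sites, and the other values were 5% at Mhc, 4% at Rya-r44F site 5 and 1% at bt. Levels above 2% in ADAR0 were thus found at 2 of 13 sites, against 5.89% of all sites. The ADAR0 level was lower than in yw males by more than 10 points at 5 of 13 sites, against 60.8% of all sites. The count was 4 of 13 against FM7a males, where it was 52.5% of all sites. The differences from yw males were -92 points at Rya-r44F site 5, -77 points at Unc-89, -20 points at bt, -15 points at Mhc and -14 points at Rya-r44F site 6. At 8 sites yw males themselves were at 10% or less, so the limit could not be reached there. For Zasp52 and Rya-r44F site 1 both yw and ADAR0 males were listed at 0, and the comparison says nothing about the enzyme at these sites. At these sites FM7a males had 4% and 1%. Levels were also low at sls, with 1% in yw and 0% in FM7a males, and at Rya-r44F site 3, with 2% and 1%. At Rya-r44F site 7 yw males had 5% and FM7a males were listed at 0. In yw and FM7a males, Rya-r44F site 2 had 5% and 1%, site 8 had 3% and 6%, and site 4 had 10% and 1%. With unknown read depth, the comparison says little about the enzyme at sls and at Rya-r44F sites 2, 3, 4, 7 and 8.

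How mRNA compares with nascent RNA could be read at 4 sites. The yw mRNA level, from the strain of the nascent RNA, was higher than the nascent pool by more than 10 points at 1 of 4 sites, against 43.2% of all sites with an mRNA level, and lower at 0 of 4, against 3.89%. The 1 site was bt, with a difference of 25 points. Unc-89 differed by -4 points and Rya-r44F sites 5 and 6 by -8 points each. The Canton S mRNA level was higher at 1 of 4 sites, against 21.8%, and lower at 0 of 4, against 3.89%. Here the 1 site was Unc-89, with 11 points, and bt had -10 points, Rya-r44F site 5 had 4 points and site 6 had -7 points.

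**Figure D3:**
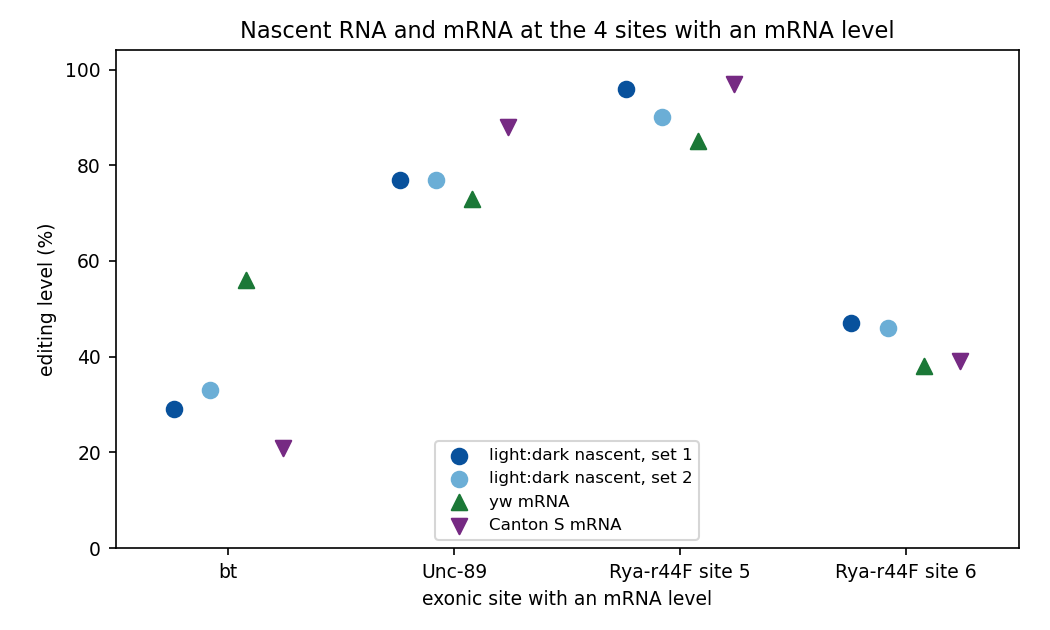
Editing level in percent (y axis) in both light:dark nascent sets, yw mRNA and Canton S mRNA at the 4 exonic sites with an mRNA level (x axis), with 1 deposited value per point. The mRNA strains lie on opposite sides of the nascent sets at bt, Unc-89 and Rya-r44F site 5, and together below them at site 6.

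The mRNA strains differed from each other in both directions. At bt the yw level was higher by 35 points, the only 1 of 4 sites higher by more than 10 points, against 28% of the 257 sites with an mRNA level. This difference was rank 6 from the top of the 257. The yw level was lower by more than 10 points at 2 of 4 sites, against 6.23% of all sites. These were Unc-89, with -15 points, and Rya-r44F site 5, with -12 points. At Rya-r44F site 6 the strains differed by -1 point.

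At 3 of 4 sites both nascent sets fell between the mRNA strains, against 16.3% of all sites. In bt it was yw mRNA that lay above, and in Unc-89 and Rya-r44F site 5 it was Canton S mRNA. At the remaining site, Rya-r44F site 6, both strains lay below both nascent sets, against 8.95% of all sites. With 4 sites these shares have little precision, and the rule compares mRNA only with the range between the sets of the same site. At Unc-89 both sets were at 77%, so differences of any size in opposite directions passed. The mRNA pools also differ in the number of libraries, 2 against 12, and in times of day, which were 2 and 14 h after lights on for yw and 0, 4, 8, 12, 16 and 20 h for Canton S. At least strain, time and number of libraries cannot be told apart, and no CASAVA version is given here for Canton S mRNA.

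**Figure D4:**
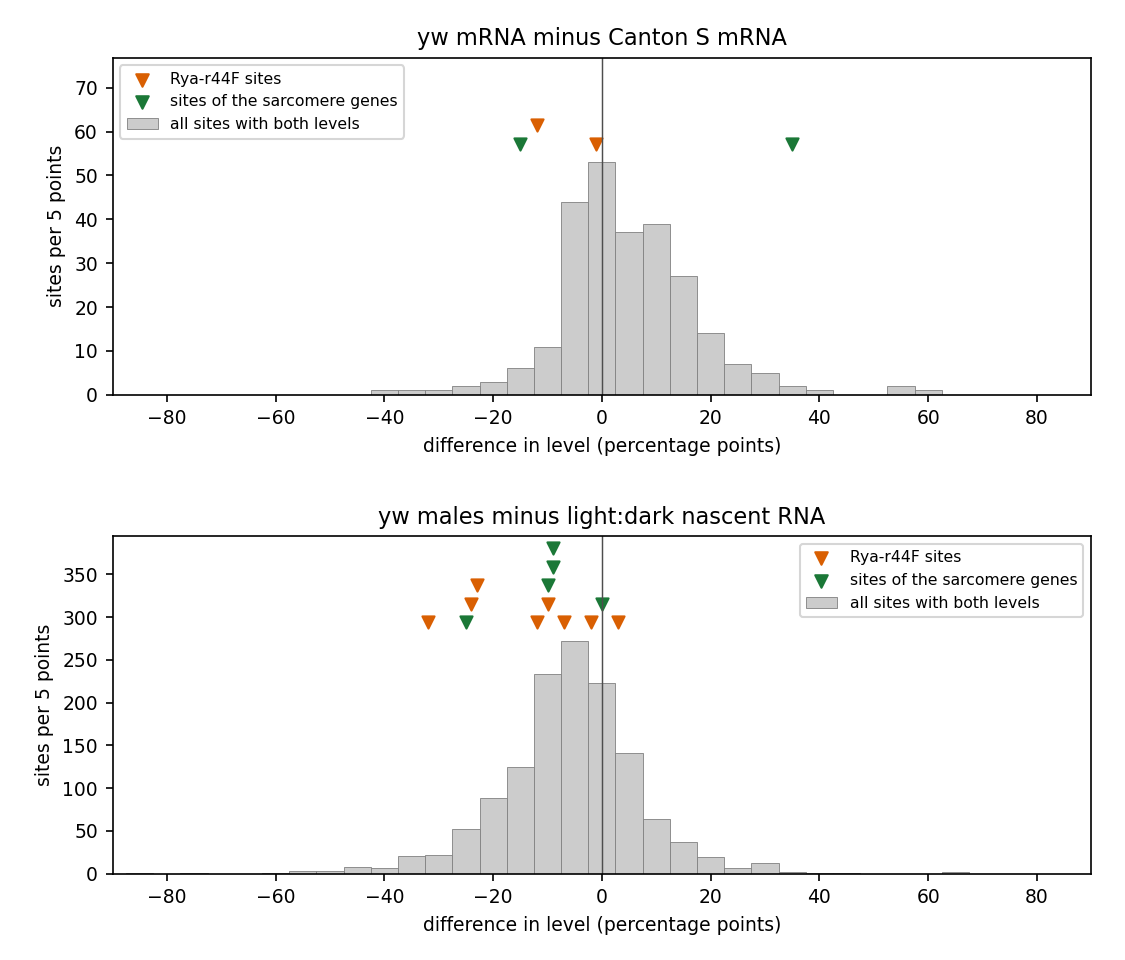
Histograms over all sites with both levels of yw mRNA minus Canton S mRNA (upper panel) and yw males minus light:dark nascent RNA (lower panel), in percentage points on the x axis and sites per 5 points on the y axis. Triangles, spread in height only for legibility, mark the members: bt lies at 35 points and Unc-89 at -15 points in the upper panel, and Rya-r44F site 6 at -32 points in the lower panel.

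Sites outside the 6 genes with the most similar levels were sought over all deposited levels, which are 8 where mRNA was given and 6 otherwise and include both nascent sets and their pool. The measure was the mean absolute difference. The nearest to Unc-89 was an exonic site of the potassium channel gene Shab (chromosome 3L, position 2925255), with a mean difference of 2.75 points over 8 levels. The nearest to Rya-r44F site 5 was an exonic site of Rdl, a GABA receptor gene (chromosome 3L, position 9148318), at 3.38 points. For bt it was an exonic site of the sodium/calcium exchanger gene Calx (chromosome 3R, position 16819575), at 3.13 points, with 57% in yw and 29% in Canton S mRNA. For Mhc intronic sites of the potassium channel genes Sh (chromosome X, position 17824975) and Shab (chromosome 3L, position 2940259) tied at 3.67 points over 6 levels. Males of yw and FM7a were at 15% and 50% at the Sh site, and at 21% and 38% at the Shab site. For Rya-r44F site 6 it was an exonic site of kis, a chromatin remodeller gene (chromosome 2L, position 214328), at 3.63 points, with males at 25% and 18%. For Zasp52 intronic sites of Pka-R2 (chromosome 2R, position 5910458) and trio (chromosome 3L, position 1034384) tied at 1.33 points. They had 24% and 26% in the light:dark pool and 0% in yw and FM7a males. For Rya-r44F site 8 it was an exonic site of shot (chromosome 2R, position 9767879), at 1.33 points. The shot site had 27% in the light:dark pool, 7% in yw males and 4% in FM7a males. Low male levels were thus also listed outside the 6 genes.

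Other genes of muscle contraction were taken from fixed lists. Of 37 genes of the sarcomere and its attachment, 6 had a listed site, the 5 members and Msp-300, which encodes a giant nesprin-like protein that positions muscle nuclei. Msp-300 had 10 exonic sites with nascent levels from 4% to 29%, and both male strains were under 50% of the light:dark level at 2 of the 10. The genes of actin, tropomyosin, troponin and the myosin light chains in the list had no listed site. Of 13 genes of calcium release and uptake, 5 had a site. Besides Rya-r44F they were the calcium channel genes Ca-alpha1D and Ca-beta and the exchanger genes Nckx30C and Calx, with 11, 4, 6 and 5 sites. Both male strains were under 50% of the light:dark level at 2 of 11, 1 of 4, 0 of 6 and 0 of 5 of these, beside 6 of 8 in Rya-r44F. The difference between these genes was not tested. Most genes of this calcium list also work in neurons.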

How the data were processed

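Libraries of nascent RNA, mRNA and genomic DNA from fly heads were represented by 1 deposited table of sites. Per the file headers, the authors pooled the libraries of a group and gave each editing level as a fraction, which the table holds to hundredths. The deposited 5th percentile over 12 nascent libraries is a fraction too, and the deposited genomic coverage is a read count. Per the submitters' processing notes, the build was dm3 and TopHat and CASAVA were used, in version 1.8 for the males and 1.6 for other nascent, yw mRNA and genomic libraries. The site caller and the choice of sites for an mRNA level, and whether positions count from 0 or 1, are not given in the sources used here. Per the labels, rRNA was depleted from nascent set 1, so the spread between sets holds this difference.

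Fractions were multiplied by 100 and compared with Python 3.11.15 and pandas 2.3.3. All 13 sites are named. No test was run, because groups hold 1 pooled value. The counting rule was run on simulated levels with differences far from the limit, which checks the code and not the counts given here. Alternatives were thresholds of 5 and 20 points, single nascent sets, other control pools and other summaries. The members and gene lists were chosen with earlier results of these data known. No genome or sequence table of this build was used, so no sequence is printed.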

Additional observations from a re-analysis of the deposited data

Results flagged for a closer look

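At 3 of 4 sites, against 16.3% of all sites, both nascent sets fell between the mRNA levels of yw and Canton S. The difference from nascent RNA thus changed sign with the strain, but only at bt were both differences larger than the spread between sets. Over the 257 sites with an mRNA level, that spread was an SD of 4.94 points. Unc-89 had -4 points in yw mRNA and Rya-r44F site 5 had 4 points in Canton S mRNA, both within it. The differences between strains were not tested, because each strain has 1 pooled level. Measured as yw minus Canton S, the mRNA difference was 35 points at bt, -15 points at Unc-89 and -12 points at Rya-r44F site 5. At Rya-r44F site 5 the nascent sets themselves differed by 6 points, and the Canton S level was 1 point above the higher set (97% against 96%). At Unc-89 the nascent sets and yw males were all at 77%. Strain, time of day and number of libraries differ together between the mRNA pools, and their part in the result was not tested.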

How the results depend on the processing

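No paired analysis was possible because the deposited levels pool the replicates. Of 112 alternative values for single sites and for shares of all sites, 4 changed sign, all at single sites. With Canton S in place of yw mRNA, the difference from nascent RNA reversed at bt (-10 points), Unc-89 (11 points) and Rya-r44F site 5 (4 points), and the cause was not tested. Against nascent set 1 alone, yw males were 2 points higher at Rya-r44F site 4, and -5 points against set 2. The median nascent level of the 13 sites was 31.8% as a mean, and 23% and 26% with set 1 or set 2 alone. With FM7a in place of yw males as the control, ADAR0 males differed by -1 rather than -10 points at Rya-r44F site 4. The same change gave 0 rather than -5 points at Rya-r44F site 7 and -42 rather than -15 points at Mhc. The shares that follow are of the other sites in the table. With a threshold of 5 points, yw mRNA was below nascent RNA at 2 of 4 sites (12.6%), Canton S mRNA below it at 2 of 4 (17%), yw males below light:dark heads at 10 of 13 (49.3%), and FM7a below yw males at 1 of 13 (37.1%). With 20 points, Canton S mRNA was above nascent RNA at 0 of 4 sites (5.14%), yw below Canton S mRNA at 0 of 4 (1.98%), and ADAR0 below yw males at 2 of 13 (38.7%). At 10 points, yw mRNA was below set 1 alone at 1 of 4 sites, Rya-r44F site 5 with -11 points, and below set 2 at 0. Canton S mRNA was below set 1 at 0 of 4 sites and below set 2 at 1, bt with 21% against 33%. No share over the other sites was computed for single sets, so these counts are not read further. The relative rule for yw males alone, chosen after seeing the data, gave 8 of 13 sites (30.4%). The read depth behind the RNA levels is unknown, so no counting interval could be given.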
